A study of Arabidopsis thaliana with 42 samples.

Results

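Arabidopsis thaliana keeps its heterochromatin in blocks around the 5 centromeres, and loci there that carry an ordinary gene identifier were set apart by that identifier alone. The members are the rows whose identifier begins with AT1G35 to AT1G43, AT2G10 to AT2G13, AT3G31 to AT3G41, AT4G06 to AT4G08 or AT5G28 to AT5G34, which made 1438 of the 25069 rows of the count table, against 21530 other rows of the same gene form. RNA was sequenced from seedlings 2 weeks old, grown on plates at 22 °C with a 16 h day and an 8 h night, after 7 days in the dark at 4 °C. The 12 libraries of polyA RNA fall into 4 groups of 3: the double mutants ddm1nrpd1, ddm1nrpe1 (spelled ddm1npre1 in the sample labels) and ddm1cmt2, and the single mutant ddm1. Every group lacks DDM1 function, so each comparison against ddm1 sets a double mutant beside plants that are already ddm1 mutants. The series design names interplay between CMT2 and RNA-directed DNA methylation as its question. The other 30 samples of the series and wild-type RNA are not analysed here.

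DDM1 is a chromatin remodeller that opens heterochromatin to DNA methyltransferases, and plants that lack it lose much DNA methylation and transcribe many transposons. CMT2 is a methyltransferase that maintains non-CG methylation over long transposons in heterochromatin. NRPD1 belongs to RNA polymerase IV and NRPE1 to RNA polymerase V, each as its catalytic subunit, which make the precursor of small RNAs and the scaffold transcript in RNA-directed DNA methylation. In Arabidopsis annotation, many gene identifiers around the centromeres belong to transposon genes and their remnants, which the RefSeq gene table lists as pseudogenes.

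By that table, 1083 of the 1438 loci (75.3%) were pseudogenes, 330 (22.9%) protein-coding, 14 other RNA genes and 11 were not listed. Elsewhere on the chromosomes, 4.83% of rows were pseudogenes and 93.0% protein-coding. Chromosomes 1 to 5 contributed 378, 255, 143, 288 and 374 loci. The filter on low counts left 1427 loci, among them 1081 of the pseudogene class and 321 protein-coding. The 11 that were not tested were 9 protein-coding loci and 2 pseudogenes. A read was counted in every one of the 12 libraries at 1386 loci, and the smallest total of a tested locus was 53 reads. The median level was 8.48 CPM (read counts scaled to TMM-normalised library size) for pseudogene-class loci and 11.4 CPM for protein-coding loci around the centromeres, against 6.34 and 14.3 CPM for those classes elsewhere.

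Total counts ran from 7842329 to 24788784 per library, with the 3 ddm1 libraries lowest. Between replicates of a group, log2 CPM correlated at 0.979 to 0.994, and a chi-square statistic over its degrees of freedom of 3.77 to 24.0 put their differences above counting noise. Whether replicates are separate plants is not in the labels, so p-values measure a spread that may be technical. NRPD1 transcript was highest in ddm1nrpd1 (13.7 to 14.98 CPM, against 4.28 to 6.63 CPM in ddm1) and NRPE1 transcript in ddm1nrpe1 (55.1 to 65.2 CPM, against 11.98 to 14.1 CPM in ddm1). CMT2 stood at 25.9 to 28.03 CPM in ddm1cmt2 and 29.9 to 35.2 CPM in ddm1, and where each lesion lies is not stated, so these levels check no label. The 5 leaf markers summed to 20224 to 24860 CPM in ddm1nrpd1, 19839 to 24386 CPM in ddm1nrpe1, 33472 to 37736 CPM in ddm1cmt2 and 22576 to 25593 CPM in ddm1. Plastid transcripts took 0.223% of counts in ddm1nrpd1, 0.232% in ddm1nrpe1, 0.870% in ddm1cmt2 and 1.75% in ddm1. Without the organelle loci, the fit called 517 loci around the centromeres higher and 320 lower in ddm1nrpe1 against ddm1, against 529 and 304 with them. Whether fewer cells of a type or less RNA per cell lies behind a lower level cannot be told apart in whole seedlings.

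Pericentromeric pseudogene-class loci took the largest share of the RNA in ddm1nrpe1 and the smallest in ddm1cmt2. Their share of all counts was 3.62% ± 0.356 in ddm1nrpd1 (3.29% to 4.00%), 4.70% ± 0.108 in ddm1nrpe1 (4.59% to 4.80%), 2.98% ± 0.252 in ddm1cmt2 (2.69% to 3.17%) and 3.70% ± 0.315 in ddm1 (3.37% to 4.00%; SD, n = 3 each). The ddm1nrpe1 libraries lay above the libraries of the other genotypes and the ddm1cmt2 libraries below them, while ddm1nrpd1 and ddm1 overlapped. Without the 9 most abundant of these loci, the mean share was 3.12% in ddm1nrpd1, 4.00% in ddm1nrpe1, 2.45% in ddm1cmt2 and 2.97% in ddm1. Pseudogene-class loci outside the blocks took 2.57% in ddm1nrpd1, 2.75% in ddm1nrpe1, 2.02% in ddm1cmt2 and 2.57% in ddm1. Protein-coding loci inside the blocks took 1.51% in ddm1nrpd1, 1.43% in ddm1nrpe1, 1.38% in ddm1cmt2 and 1.63% in ddm1. Transposon rows took 5.60% in ddm1nrpd1, 6.69% in ddm1nrpe1, 4.99% in ddm1cmt2 and 6.02% in ddm1. These shares are given without a test.

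**Figure D1:**
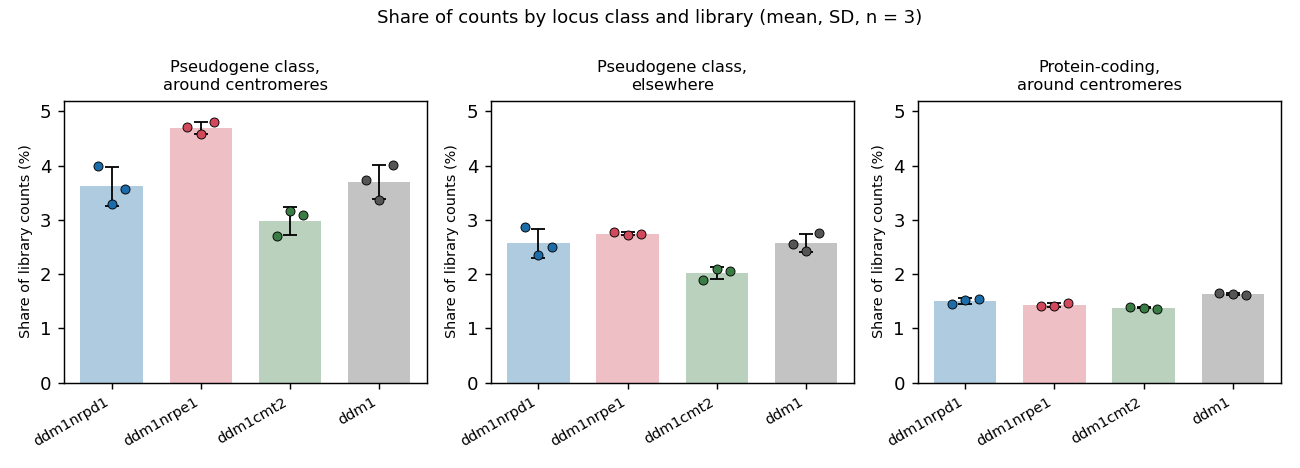
Share of each library's counts (percent, linear axis) in pseudogene-class loci around the centromeres (left), the same class elsewhere (middle) and protein-coding loci around the centromeres (right). Points are libraries, bars group means and error bars SD (n = 3), and in the left panel ddm1nrpe1 stands highest at 4.70% and ddm1cmt2 lowest at 2.98%.

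Pericentromeric loci differed in both directions between ddm1nrpd1 and ddm1. A locus is said to rise or fall here where edgeR's quasi-likelihood test, adjusted after Benjamini-Hochberg over 24839 tested loci, gave an adjusted p under 0.05. In ddm1nrpd1 against ddm1, 421 of the 1427 loci rose and 372 fell, where 22.9% of all tested loci rose and 21.7% fell and, of gene-form loci elsewhere, 21.8% rose and 20.7% fell. Of the 1081 pseudogene-class loci, 354 rose (32.7%) and 287 fell (26.5%), 244 and 136 of them at least 2-fold, and their median log2 fold change was 0.04. The same class elsewhere had 242 of 1016 that rose (23.8%) and 293 that fell (28.8%), with a median of -0.09. Among protein-coding loci in the blocks, 62 of 321 rose and 79 fell, with a median of -0.08.

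In ddm1nrpe1, rises among pericentromeric pseudogene-class loci outnumbered falls. Against ddm1, 529 of the 1427 loci rose and 304 fell, where 26.5% of all tested loci rose and 23.9% fell and, of gene-form loci elsewhere, 25.0% rose and 23.9% fell. Of the pseudogene-class loci 460 rose (42.6%) and 210 fell (19.4%), 329 and 94 of them at least 2-fold, and the median log2 fold change was 0.27, beside 0.01 over all tested loci. Pseudogene-class loci elsewhere had 245 of 1016 that rose (24.1%) and 302 that fell (29.7%), with a median of -0.13. The rows with a transposon identifier had 724 of 1903 that rose (38.0%) and 420 that fell (22.1%), with a median of 0.17. Protein-coding loci of the blocks had 64 that rose and 89 that fell, with a median of -0.11.

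In ddm1cmt2 the pseudogene class fell more often than it rose, inside the blocks and outside them. Around the centromeres 155 of the 1427 loci rose and 345 fell against ddm1, where 18.4% of all tested loci rose and 17.7% fell and, of gene-form loci elsewhere, 19.9% rose and 16.6% fell. The pseudogene class held 88 that rose (8.14%) and 282 that fell (26.1%), 41 and 99 of them at least 2-fold, with a median log2 fold change of -0.27. Elsewhere 87 of 1016 rose (8.56%) and 314 fell (30.9%), also with a median of -0.27. Of the transposon rows 156 rose (8.20%) and 428 fell (22.5%), with a median of -0.19. Protein-coding loci in the blocks had 65 that rose and 61 that fell (median 0.03). The 3 comparisons share the ddm1 libraries.

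The double mutants were also compared with each other, without ddm1. In ddm1nrpd1 against ddm1nrpe1, 187 pericentromeric loci were higher and 492 lower, where 16.4% of all tested loci were higher and 19.7% lower (16.8% and 17.9% of gene-form loci elsewhere). Among the pseudogene class 129 were higher (11.9%) and 440 lower (40.7%) in ddm1nrpd1, with a median log2 fold change of -0.33, beside 19.4% and 21.1% and a median of -0.02 for the class elsewhere. Of the transposon rows 15.3% were higher and 30.2% lower, with a median of -0.14. In ddm1cmt2 against ddm1nrpd1, 318 loci were higher and 526 lower, where 26.0% of all tested loci were higher and 24.5% lower (26.4% and 22.2% of gene-form loci elsewhere), and the pseudogene class held 225 higher (20.8%) and 448 lower (41.4%; median -0.26). The class elsewhere was close to this, with 21.8% higher and 35.5% lower (median -0.17). Transposon rows were closer still, with 20.7% higher and 41.7% lower (median -0.30). In ddm1cmt2 against ddm1nrpe1, 255 were higher and 647 lower, where 26.9% of all tested loci were higher and 28.2% lower (28.2% and 25.5% of gene-form loci elsewhere). Of the pseudogene class 563 of 1081 (52.1%) were lower in ddm1cmt2 than in ddm1nrpe1, 386 of them at least 2-fold, with a median of -0.53, beside 36.8% and -0.12 for the class elsewhere. The transposon rows were nearer to it, with 47.2% lower and a median of -0.41.

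**Figure D2:**
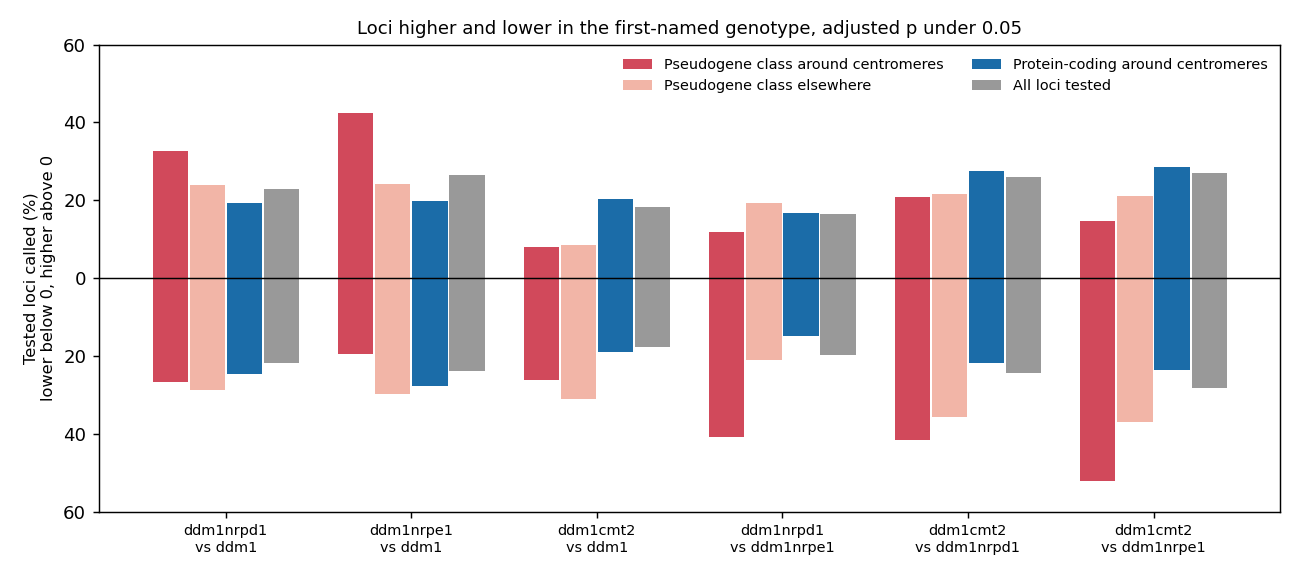
Percent of tested loci called higher (above 0) and lower (below 0) in the first-named genotype of each comparison, for pseudogene-class loci around the centromeres (1081), the class elsewhere (1016), protein-coding loci around the centromeres (321) and all 24839 loci. The bars of the pseudogene class around the centromeres reach 42.6% upward in ddm1nrpe1 against ddm1 and 52.1% downward in ddm1cmt2 against ddm1nrpe1.

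The counts did not rest on faint loci alone. Split by mean level over the 12 libraries into 4 classes of near-equal size, the pseudogene class had 109, 112, 116 and 123 loci that rose in ddm1nrpe1 against ddm1 from the faintest to the strongest class (270 or 271 loci each), and 48, 51, 72 and 39 that fell. In ddm1nrpd1 81, 91, 89 and 93 rose and 49, 59, 92 and 87 fell. In ddm1cmt2 15, 15, 19 and 39 rose and 52, 63, 80 and 87 fell. Rises outnumbered falls in all 4 classes in ddm1nrpe1 and falls outnumbered rises in all 4 in ddm1cmt2, while in ddm1nrpd1 falls led in the third class. Over all tested loci, 26.5% rose and 23.9% fell in ddm1nrpe1, 22.9% and 21.7% in ddm1nrpd1, and 18.4% and 17.7% in ddm1cmt2. In ddm1cmt2 the faintest class had 19.2% that fell, near that share, and 5.54% that rose. The classes spanned mean levels of 0.43 to 2.69, 2.71 to 8.48, 8.49 to 27.4 and 27.5 to 1090 CPM.

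All 5 blocks held more pseudogene-class loci that rose than fell in ddm1nrpe1. Against ddm1, 129 rose and 52 fell on chromosome 1, 68 and 35 on chromosome 2, 47 and 34 on chromosome 3, 92 and 28 on chromosome 4, and 124 and 61 on chromosome 5. Over all tested loci 26.5% rose and 23.9% fell in ddm1nrpe1. In ddm1nrpd1, falls outnumbered rises on chromosome 4, where 61 rose and 72 fell, and there the pseudogene class was lower in ddm1nrpd1 than in ddm1nrpe1 at 116 of 209 loci (55.5%) and higher at 6. Of all tested loci, 22.9% rose and 21.7% fell in ddm1nrpd1 against ddm1. Against ddm1nrpe1, 16.4% were higher and 19.7% lower in ddm1nrpd1. In ddm1cmt2 more fell than rose in each block. Rises against falls were 23 against 82, 26 against 42, 5 against 45, 15 against 59 and 19 against 54 on chromosomes 1 to 5. The falls made 31.9%, 21.6%, 35.2%, 28.2% and 18.4% of the tested loci of the class in that order. Over all tested loci 18.4% rose and 17.7% fell, so falls on chromosome 5 were near that share, while 6.48% rose there.

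Within a block the response of the pseudogene class varied along the identifier order. The 26 pseudogene-class loci of AT1G41 had a median log2 fold change of 0.82 in ddm1nrpd1, 1.58 in ddm1nrpe1 and -0.76 in ddm1cmt2, each against ddm1. Of these loci, 20 rose in ddm1nrpe1 (76.9%). The 27 of AT5G31 had medians of 0.80, 1.48 and 0.00 in that order of genotypes. The 33 of AT1G38 had a median of -0.46 in ddm1nrpd1, where 5 rose (15.2%) and 16 fell (48.5%). In ddm1nrpe1 their median was 0.38, and 15 rose (45.5%) and none fell. At the start of the chromosome 5 block, 7 of the 55 pseudogene-class loci of AT5G28 rose (12.7%) and 24 fell (43.6%) in ddm1nrpe1 (median -0.37). Over all tested loci 22.9% rose and 21.7% fell in ddm1nrpd1, and 26.5% rose and 23.9% fell in ddm1nrpe1. These prefixes were picked after their values were seen.

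**Figure D3:**
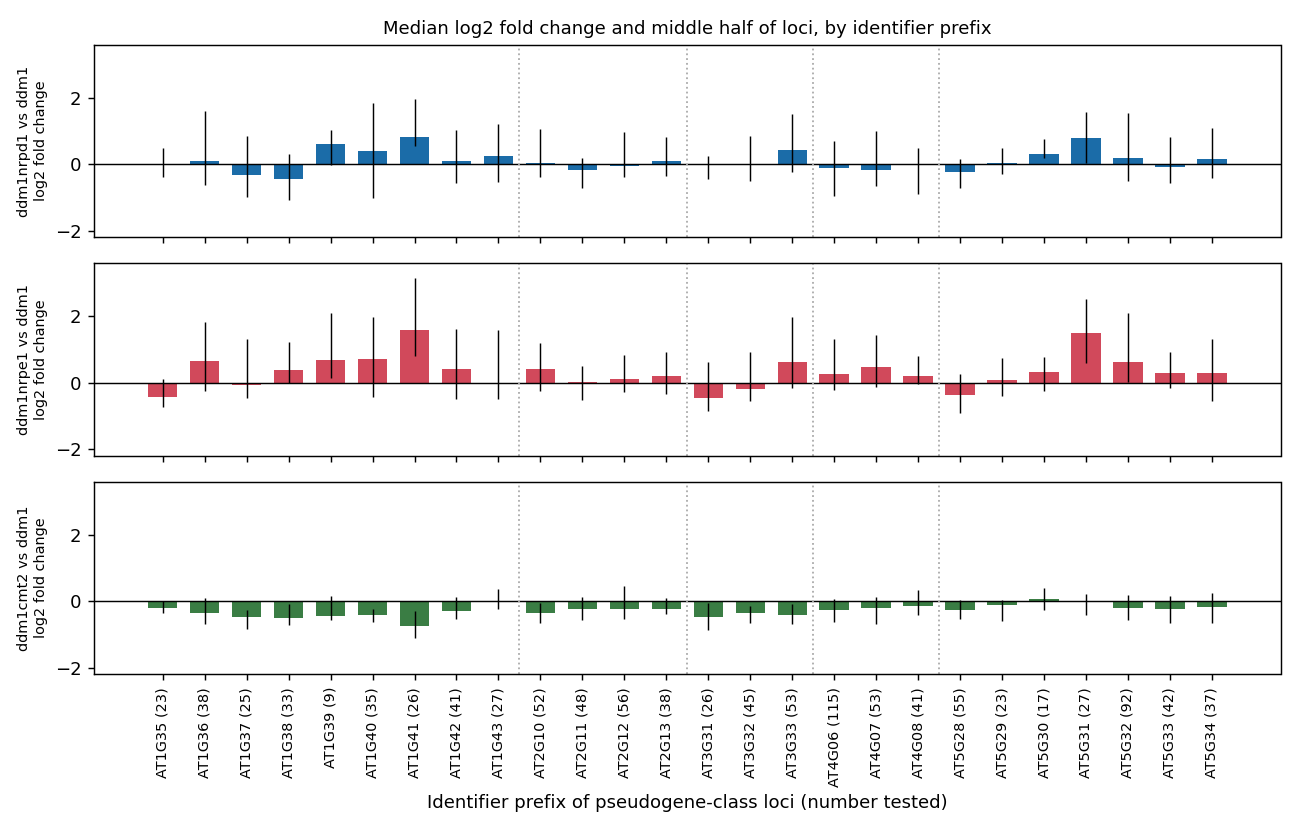
Median log2 fold change against ddm1 (bars) of pseudogene-class loci by identifier prefix, for prefixes with at least 5 tested such loci, in ddm1nrpd1 (top), ddm1nrpe1 (middle) and ddm1cmt2 (bottom), with lines from the lower to the upper quartile and dotted lines between chromosomes. Among the prefixes shown, the tallest bars are AT1G41 and AT5G31 in ddm1nrpe1, at 1.58 and 1.48, and the ddm1cmt2 bar of AT1G41 lies at -0.76.

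Part of the AT1G41 signal lay in a stretch of neighbours. The 10 tested loci from AT1G40630 to AT1G41710, consecutive in identifier order, all rose in ddm1nrpd1 (log2 fold changes 0.66 to 3.48, median 2.51) and in ddm1nrpe1 (1.56 to 4.87, median 3.31) against ddm1. The stretch was picked for these values, so they are a description. AT1G41710 had 15.04, 15.4 and 14.9 CPM in ddm1nrpd1, 34.1, 29.5 and 28.9 in ddm1nrpe1, 0.807, 0.852 and 1.37 in ddm1cmt2, and 1.87, 1.61 and 1.73 in ddm1. The 4 genotypes did not overlap at this locus. AT1G41680, the most abundant of the stretch, had 452, 385 and 420 CPM in ddm1nrpd1, 705, 633 and 623 in ddm1nrpe1, 109, 119 and 141 in ddm1cmt2, and 203, 213 and 247 in ddm1, in the same order and again without overlap. AT1G41690, a faint neighbour, had 4.17, 3.09 and 4.02 CPM in ddm1nrpd1 and 11.2, 7.61 and 10.5 in ddm1nrpe1, while its ddm1cmt2 values of 0.807, 0.0608 and 0.183 spanned the ddm1 values of 0.329, 0.370 and 0.288. AT1G41115, AT1G41600 and AT1G41630 have the same listed length, 2814 bp, and AT1G41660 has 2808 bp. Copies of one element can share reads, so these loci may not be separate evidence. The stretch ended at AT1G41720, which had 50.9, 45.2 and 54.7 CPM in ddm1nrpd1 and 78.8, 52.2 and 85.2 in ddm1 and did not pass the test in any of the 3 comparisons.

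**Figure D4:**
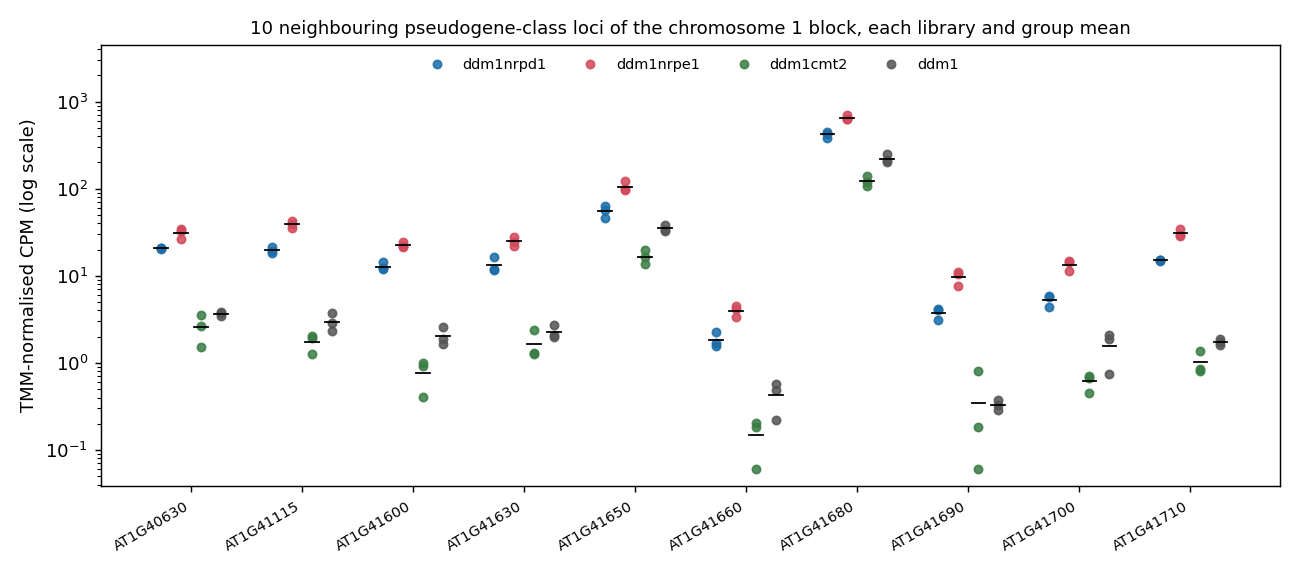
TMM-normalised CPM (log axis) in each library at the 10 consecutive loci from AT1G40630 to AT1G41710, with black lines at group means. At each locus the ddm1nrpe1 and ddm1nrpd1 libraries lie above those of ddm1cmt2 and ddm1, as at AT1G41710 with 28.9 CPM and more in ddm1nrpe1 and 1.87 CPM and less in ddm1.

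Stretches of 5 or more consecutive tested loci that moved one way occurred elsewhere too. Counting the one above, ddm1nrpe1 against ddm1 had 20 such stretches of loci that rose and 4 of loci that fell. ddm1nrpd1 had 8 that rose and 3 that fell, and ddm1cmt2 had 1, of loci that fell. Stretches that rose in ddm1nrpe1 included the 11 loci from AT1G41795 to AT1G41920 (median log2 fold change 1.25), the 9 from AT2G12780 to AT2G12845 (1.49) and the 9 from AT5G32505 to AT5G32517 (1.93). In ddm1nrpd1 against ddm1nrpe1 the 15 loci from AT1G38320 to AT1G38550 were all lower (median -0.98). The number of stretches that independent loci would give was not computed.

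CACTA1, an En/Spm-like DNA transposon (AT2G12210), took opposite courses in the double mutants. It had 24.1, 17.4 and 18.4 CPM in ddm1nrpd1, 65.9, 56.6 and 80.6 in ddm1nrpe1, 343, 421 and 405 in ddm1cmt2, and 147, 201 and 127 in ddm1. No library of one genotype overlapped another's. It fell in ddm1nrpd1 (log2 fold change -2.99 ± 0.19, adjusted p = 3.9e-08) and in ddm1nrpe1 (-1.23 ± 0.18, adjusted p = 8.1e-05), and it rose in ddm1cmt2 (1.30 ± 0.18, adjusted p = 6.9e-05). Nearby, AT2G12195 rose to 8.48, 8.21 and 5.48 CPM in ddm1cmt2, against 1.43, 0.741 and 0.769 in ddm1 (2.91 ± 0.29), and AT2G12270 to 7.97, 7.54 and 4.11 CPM, against 0.549, 0.370 and 0.481 (3.78 ± 0.40). Both were named for their steep rise in ddm1cmt2. Of the 56 tested pseudogene-class loci of AT2G12, 9 rose (16.1%) and 11 fell (19.6%) there, with a median of -0.22. Over all tested loci 18.4% rose and 17.7% fell. MU1 (AT4G08680), a Mutator-like transposon, had 9.52, 8.08 and 8.30 CPM in ddm1nrpd1, 14.0, 15.4 and 13.9 in ddm1nrpe1, 28.2, 24.0 and 17.3 in ddm1cmt2, and 18.8, 15.8 and 14.5 in ddm1. MU1 fell in ddm1nrpd1 (-0.92 ± 0.16, adjusted p = 2.9e-04). Its ddm1cmt2 value of 0.50 ± 0.16 (adjusted p = 0.021) was 0.34 without ddm1cmt2 replicate 1, 0.47 without ddm1cmt2 replicate 2, 0.48 without ddm1 replicate 2 and 0.40 without ddm1 replicate 3, and lost its call in each.

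AT4G06566, a pseudogene-class locus of chromosome 4, was among the most abundant of its class in ddm1 and far lower in ddm1nrpe1. It had 186.9, 305.8 and 362.6 CPM in ddm1nrpd1, 5.68, 6.34 and 8.62 in ddm1nrpe1, 555.5, 712.4 and 534.0 in ddm1cmt2, and 1030.1, 944.1 and 1070.7 in ddm1. The genotypes were ordered without overlap. The log2 fold change against ddm1 was -1.83 ± 0.21 in ddm1nrpd1 (adjusted p = 1.6e-05), -7.20 ± 0.28 in ddm1nrpe1 (adjusted p = 3.0e-10) and -0.76 ± 0.21 in ddm1cmt2 (adjusted p = 0.011). Between the double mutants it was higher in ddm1nrpd1 than in ddm1nrpe1 by 5.37 ± 0.26. The transposon row AT4TE15820 was also lowest in ddm1nrpe1, with 4778, 11263 and 7632 reads in ddm1nrpd1, 45, 64 and 96 in ddm1nrpe1, 7068, 14386 and 7332 in ddm1cmt2 and 10990, 9103 and 13111 in ddm1. The ratio of AT4G06566 reads to its reads was 0.666 to 0.733 in ddm1nrpd1, 1.67 to 2.13 in ddm1nrpe1, 0.779 to 0.814 in ddm1cmt2 and 0.840 to 0.854 in ddm1, so the rows diverged in ddm1nrpe1. Whether they count some of the same reads was not tested.

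PUM9 (AT1G35730), which encodes an RNA-binding protein of the Pumilio family, and the adjoining pseudogene AT1G35735 were high in ddm1nrpd1 and ddm1nrpe1 and near the detection limit in ddm1cmt2 and ddm1. PUM9 had 28.1, 18.95 and 20.8 CPM in ddm1nrpd1, 25.6, 34.7 and 30.7 in ddm1nrpe1, 0.505, 0.669 and 0.822 in ddm1cmt2, and 0.988, 0.741 and 1.15 in ddm1. AT1G35735 had 38.7, 54.5 and 53.7 CPM in ddm1nrpd1, 37.9, 64.4 and 78.9 in ddm1nrpe1, 0.505, 0.791 and 0.274 in ddm1cmt2, and 1.10, 0.617 and 0.385 in ddm1. At both loci every ddm1nrpd1 and ddm1nrpe1 library stood above every ddm1cmt2 and ddm1 library. The log2 fold changes of PUM9 were 4.52 ± 0.24 in ddm1nrpd1 (adjusted p = 8.5e-10) and 4.95 ± 0.23 in ddm1nrpe1 (adjusted p = 1.8e-10), and -0.54 ± 0.40 in ddm1cmt2, which did not pass the test. ANNAT1 (AT1G35720), the annexin gene on the other side of PUM9, had 253, 276 and 238 CPM in ddm1nrpd1, 469, 470 and 343 in ddm1nrpe1, 283, 298 and 358 in ddm1cmt2, and 273, 306 and 201 in ddm1, a rise in ddm1nrpe1 (0.72 ± 0.16, adjusted p = 0.0016). ANNAT1 was added after its values were seen.

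Some loci were close to silent in ddm1 and transcribed in ddm1nrpd1 or ddm1nrpe1. AT2G13270 had 1 read in the 3 ddm1 libraries together and 459 in ddm1nrpd1, a ratio of 216 (95% counting interval 38.6 to 8550). In ddm1nrpe1 it had 716 reads, a ratio of 369 (66.0 to 14586). This locus also rose in ddm1cmt2 (log2 fold change 3.93 ± 0.93, adjusted p = 0.0038), with 25 reads, a ratio of 18.5 (3.03 to 760). AT5G33252 had 708 reads in ddm1nrpd1 and 3 in ddm1, a ratio of 111 (37.8 to 540). AT5G31122 had 595 reads in ddm1nrpe1 and 3 in ddm1, a ratio of 102 (34.8 to 497), and 2 reads in ddm1cmt2. AT5G30390 had 23 reads in ddm1nrpd1, 349 in ddm1nrpe1, 2 in ddm1cmt2 and 1 in ddm1. AT4G07460 had 93 reads in ddm1nrpe1 and 0 in ddm1, at least 16.0-fold higher in ddm1nrpe1 on a floor of 3 counts over the ddm1 group. AT1G35050, with 68 reads in ddm1nrpd1 and 65 in ddm1nrpe1, had 0 in ddm1cmt2 and 1 in ddm1. Intervals and floors cover counting error only.

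Other loci fell. AT5G32519 had 42 reads in ddm1 and 0 in ddm1nrpe1, at least 27.2-fold lower in ddm1nrpe1. This locus also fell in ddm1nrpd1, with 5 reads (-4.03 ± 0.56, adjusted p = 6.6e-05), and in ddm1cmt2, with 6 (-3.18 ± 0.56, adjusted p = 5.9e-04). AT1G37190 had 14.98, 11.6 and 16.3 CPM in ddm1nrpd1, 25.4, 24.7 and 24.1 in ddm1nrpe1, 28.5, 23.5 and 21.7 in ddm1cmt2, and 100.1, 82.2 and 87.7 in ddm1. It fell in all 3 double mutants, with log2 fold changes of -2.66 ± 0.13, -1.86 ± 0.13 and -1.88 ± 0.13 in that order (adjusted p = 4.3e-10, 1.6e-08 and 3.1e-08). AT4G08109 fell in ddm1nrpd1 (-2.76 ± 0.29) and in ddm1cmt2 (-1.09 ± 0.26, adjusted p = 0.0039). In ddm1nrpe1 it stood at 0.33 ± 0.22, which did not pass the test. AT3G33115 fell in all 3 double mutants and furthest in ddm1nrpe1, to 0.710, 0.386 and 0.916 CPM, against 8.67, 6.17 and 7.98 in ddm1 (-3.49 ± 0.27, adjusted p = 7.6e-08). Its ddm1nrpd1 libraries held 3.41, 3.74 and 4.73 CPM (-0.95 ± 0.22). Its ddm1cmt2 libraries held 1.61, 1.70 and 2.28 CPM (-2.03 ± 0.25, adjusted p = 1.4e-05).

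Of the 9 most abundant pseudogene-class loci, which include AT4G06566, some moved and others did not pass the test. AT1G42050 had 491, 396 and 456 CPM in ddm1nrpd1 and 1121.3, 977 and 1273.1 in ddm1, and it fell in ddm1nrpd1 (-1.33 ± 0.17, adjusted p = 1.3e-05). It stood at -0.13 ± 0.16 in ddm1nrpe1 and -0.21 ± 0.16 in ddm1cmt2, neither past the threshold. AT1G36630 had 522.6, 677.6 and 812.8 CPM in ddm1nrpd1, 1609.8, 1590.4 and 1811.2 in ddm1nrpe1, 804.4, 837.2 and 652.7 in ddm1cmt2, and 1355.2, 1063.9 and 1338.2 in ddm1. It fell in ddm1nrpd1 (-0.90 ± 0.16) and in ddm1cmt2 (-0.71 ± 0.16), and its rise in ddm1nrpe1 (0.42 ± 0.15, adjusted p = 0.035) was lost without ddm1nrpe1 replicate 2 (0.45) or 3 (0.35) or ddm1 replicate 2 (0.31) or 3 (0.45). AT5G32143 had 499.7, 363 and 416 CPM in ddm1nrpd1, 906, 737 and 735 in ddm1nrpe1, 333, 304 and 339 in ddm1cmt2, and 298, 302 and 331 in ddm1, a rise of 1.35 ± 0.13 in ddm1nrpe1 (adjusted p = 5.5e-07) and of 0.46 ± 0.13 in ddm1nrpd1. AT3G32230 did not pass the test in any double mutant (0.04 ± 0.13, 0.08 ± 0.13 and 0.13 ± 0.13 in ddm1nrpd1, ddm1nrpe1 and ddm1cmt2). Per kilobase of listed length, AT5G32143 stood at 578 CPM in ddm1nrpd1, 1074 in ddm1nrpe1, 440 in ddm1cmt2 and 421 in ddm1, and AT1G36630 at 89.7, 223, 102 and 167 CPM in the same order of genotypes. The 9 most abundant together took 13.8% of the reads of the class in ddm1nrpd1, 14.8% in ddm1nrpe1, 17.8% in ddm1cmt2 and 19.7% in ddm1. The ribosomal RNA locus AT3G41768, also inside the block by its identifier, took 0.177% of counts in ddm1nrpd1, 0.221% in ddm1nrpe1, 0.155% in ddm1cmt2 and 0.293% in ddm1, in RNA selected for polyA tails.

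SADHU elements are non-autonomous retroposons of Arabidopsis, and 5 of their loci lie in the blocks by name. They were picked after their values were seen. SADHU1-1 (AT2G10410), the most abundant, had 280, 194 and 233 CPM in ddm1nrpd1, 240, 245 and 190 in ddm1nrpe1, 131, 128 and 110 in ddm1cmt2, and 144, 128 and 168 in ddm1. It rose in ddm1nrpd1 (0.68 ± 0.14, adjusted p = 0.0013) and ddm1nrpe1 (0.61 ± 0.14, adjusted p = 0.0024). SADHU4-1 (AT5G28913) fell in ddm1nrpe1 (-1.19 ± 0.25, adjusted p = 0.0011). It was also called lower in ddm1nrpd1, a call lost without ddm1nrpd1 replicate 1 (-0.70) or 2 (-0.72) or ddm1 replicate 3 (-0.73). SADHU1-3 (AT5G28626) stood at -0.67 ± 0.18 in ddm1nrpd1 and lost its call without ddm1 replicate 3 (-0.49). SADHU2-1 (AT1G35112) and SADHU7-2 (AT3G31442) passed the test in none of the 3 comparisons.

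Protein-coding genes of the blocks with the steepest rises included HCS2 (AT1G37150), a holocarboxylase synthetase gene, which moved much as PUM9 did. It had 23.1, 13.7 and 9.99 CPM in ddm1nrpd1, 29.3, 31.6 and 22.7 in ddm1nrpe1, 0.505, 0.548 and 0.822 in ddm1cmt2, and 0.769, 0.988 and 1.35 in ddm1. The log2 fold change was 3.88 ± 0.37 in ddm1nrpd1 (adjusted p = 3.9e-06) and 4.72 ± 0.36 in ddm1nrpe1 (adjusted p = 4.4e-07), and -0.75 ± 0.62 in ddm1cmt2, short of the threshold. ARGAH2 (AT4G08870), an arginase gene of nitrogen metabolism, rose in all 3 double mutants, with 12.6, 13.8 and 13.8 CPM in ddm1nrpd1, 10.5, 12.6 and 7.65 in ddm1nrpe1, 14.3, 12.7 and 6.76 in ddm1cmt2, and 1.43, 1.73 and 0.577 in ddm1. DES1 (AT5G28030), a cysteine desulfhydrase gene, rose in all 3 as well, by 3.32 ± 0.18 in ddm1nrpd1, 1.55 ± 0.19 in ddm1nrpe1 and 2.30 ± 0.19 in ddm1cmt2. FTM1 (AT1G43800), a gene of the acyl-carrier-protein desaturase family, had 78.7, 59.6 and 55.7 CPM in ddm1nrpd1, 283, 260 and 131 in ddm1nrpe1, 14.5, 29.3 and 17.6 in ddm1cmt2, and 19.9, 14.0 and 34.7 in ddm1. It rose in ddm1nrpe1 (3.28 ± 0.43, adjusted p = 2.1e-04), and its rise of 1.49 ± 0.41 in ddm1nrpd1 lost its call without ddm1nrpd1 replicate 1 (1.32) or ddm1 replicate 1 (1.39). AT1G35614 fell to 1.24, 1.21 and 1.78 CPM in ddm1nrpe1, against 23.5, 26.8 and 28.1 in ddm1 (-4.20 ± 0.30), and had 19.6, 20.5 and 23.7 in ddm1nrpd1.

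**Figure D5:**
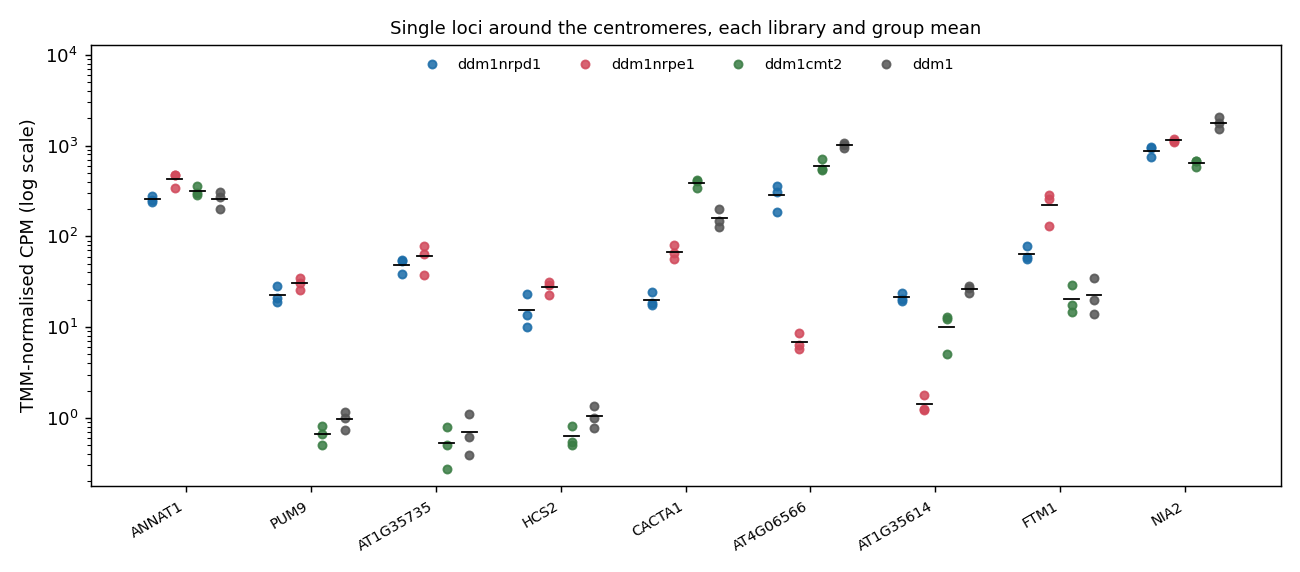
TMM-normalised CPM (log axis) in each library of 9 loci around the centromeres, with black lines at group means and genotypes in the order of the legend. AT4G06566 is lowest in ddm1nrpe1 (5.68 to 8.62 CPM), CACTA1 highest in ddm1cmt2 (343 to 421 CPM), and PUM9, AT1G35735 and HCS2 are high in ddm1nrpd1 and ddm1nrpe1 alone.

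Of 10 tested immune and stress signalling genes in the blocks, 1 rose and 1 fell in ddm1nrpd1, 7 rose and none fell in ddm1nrpe1, and 1 rose and 1 fell in ddm1cmt2, each against ddm1. In ddm1nrpe1 that is 70.0% that rose, where 26.5% of all tested loci rose and 23.9% fell, while the counts in ddm1nrpd1 and ddm1cmt2, 1 of 10 each way, lay below the 22.9% and 21.7%, and the 18.4% and 17.7%, of all tested loci. Their median log2 fold change was 0.28, 0.86 and 0.21 in that order, beside -0.00, 0.01 and -0.00 over all tested loci. MEKK3 (AT4G08470), a kinase gene near MEKK1, had 21.7, 22.6 and 21.6 CPM in ddm1nrpd1, 77.7, 70.9 and 45.1 in ddm1nrpe1, 19.8, 23.2 and 37.6 in ddm1cmt2, and 15.7, 14.7 and 10.5 in ddm1. It rose in ddm1nrpe1 (2.25 ± 0.27, adjusted p = 4.4e-05), where the co-receptor kinase gene SERK4 (1.37 ± 0.23) and the unfolded-protein-response factor gene BZIP60 (0.91 ± 0.16) rose too. MEKK3 was also the gene of the list called higher in ddm1cmt2, and it lost that call without ddm1 replicate 3 (0.79). MEKK1 (AT4G08500) itself stood at 0.07, 0.06 and 0.05 in ddm1nrpd1, ddm1nrpe1 and ddm1cmt2 and passed the test in none. ALD1 (AT2G13810), an aminotransferase gene of pipecolate synthesis, was called in ddm1nrpe1 at 3.36 ± 1.11 (adjusted p = 0.025) and lost the call without ddm1nrpe1 replicate 2 (3.19) or 3 (3.30) or ddm1 replicate 1 (2.80) or 3 (2.69).

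Shares of all tested loci that rose and fell were 22.9% and 21.7% in ddm1nrpd1, 26.5% and 23.9% in ddm1nrpe1, and 18.4% and 17.7% in ddm1cmt2. Of 14 primary metabolism genes, 2 rose and 3 fell in ddm1nrpd1, 1 rose and 4 fell in ddm1nrpe1, and 7 rose and 3 fell in ddm1cmt2, so that 14.3% rose and 21.4% fell in ddm1nrpd1, 7.14% and 28.6% in ddm1nrpe1, and 50.0% and 21.4% in ddm1cmt2. NIA2 (AT1G37130), the major nitrate reductase gene, had 750.6, 932.4 and 962.2 CPM in ddm1nrpd1, 1136.8, 1110.5 and 1182.5 in ddm1nrpe1, 583.8, 678.9 and 686.1 in ddm1cmt2, and 2079.4, 1762.7 and 1542.4 in ddm1. It fell in all 3, with log2 fold changes of -1.03 ± 0.13, -0.65 ± 0.13 and -1.47 ± 0.13 in that order of double mutants (adjusted p = 1.5e-05, 7.2e-04 and 5.5e-07). FBP (AT1G43670), the cytosolic fructose bisphosphatase gene of sucrose synthesis, rose in ddm1cmt2 to 384, 393 and 330 CPM, against 96.2, 117 and 93.9 in ddm1 (1.85 ± 0.17, adjusted p = 1.2e-06). AGT (AT2G13360), an aminotransferase gene of photorespiration, rose there too (0.83 ± 0.15). The leaf gene sum was also highest in ddm1cmt2. Of the 5 leaf markers, the antenna genes CAB3, LHCB5 and LHCA1 rose there (2.15, 0.99 and 1.94), RBCS1B fell (-0.93, adjusted p = 0.0032) and RBCS1A stood at 0.06. Their part in these results was not tested.

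Among 9 tested cell wall and surface genes, 3 rose and 5 fell in ddm1nrpd1, 3 rose and 2 fell in ddm1nrpe1, and 2 rose and none fell in ddm1cmt2. Over all tested loci, 22.9% rose and 21.7% fell in ddm1nrpd1, 26.5% and 23.9% in ddm1nrpe1, and 18.4% and 17.7% in ddm1cmt2, so the 33.3% and 22.2% of this list in ddm1nrpe1 were near the background. The neighbouring extensin-like genes AT4G08410 and AT4G08400 were almost absent from ddm1nrpd1. AT4G08410 had 3 reads there and 751 in ddm1, a ratio of 532 in favour of ddm1 (95% counting interval 181 to 2585). AT4G08400 had 0.117, 0 and 0.259 CPM in ddm1nrpd1, 8.58, 9.54 and 8.30 in ddm1nrpe1, 25.5, 29.0 and 41.8 in ddm1cmt2, and 26.8, 25.3 and 18.9 in ddm1. The 5 root hair markers also fell in ddm1nrpd1 and ddm1nrpe1 and did not pass the test in ddm1cmt2, summing to 0 to 0.195 CPM in ddm1nrpd1, 21.2 to 24.7 in ddm1nrpe1, 47.6 to 83.1 in ddm1cmt2 and 49.4 to 64.5 in ddm1. PRP1, XTH12 and RHS12 were at 0 in all ddm1nrpd1 libraries, and the part of root hair content in the extensin-like values was not tested. XGD1 (AT5G33290), which encodes a pectin xylosyltransferase, rose in all 3 double mutants (0.90 ± 0.21, 1.12 ± 0.21 and 1.14 ± 0.21 in ddm1nrpd1, ddm1nrpe1 and ddm1cmt2).

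In 9 tested genes of transcription, RNA and development, none rose and 4 fell in ddm1nrpd1, 1 rose and 3 fell in ddm1nrpe1, and 1 rose and 2 fell in ddm1cmt2. Beside the 21.7%, 23.9% and 17.7% of all tested loci that fell in ddm1nrpd1, ddm1nrpe1 and ddm1cmt2, the list had 44.4%, 33.3% and 22.2%, from few genes. ABH1 (AT2G13540), the large subunit of the nuclear cap-binding complex, fell in all 3 (-0.42 ± 0.10, -0.62 ± 0.10 and -0.39 ± 0.10 in ddm1nrpd1, ddm1nrpe1 and ddm1cmt2). BZO2H3 (AT5G28770), a bZIP factor gene, fell in ddm1nrpd1 (-1.19 ± 0.27, adjusted p = 0.0044). Of 3 genes for ribosomal proteins, the plastid RPS1 (AT5G30510) fell in ddm1nrpe1 (-0.41 ± 0.12, adjusted p = 0.0083) and the others passed in no comparison against ddm1. In the list of methylation machinery and known silenced elements, which also holds CACTA1 and MU1, none of 4 tested rose and 2 fell in ddm1nrpd1, none rose and 3 fell in ddm1nrpe1, and 2 rose and 1 fell in ddm1cmt2, too few genes to read against those shares. ORTHL (AT4G08590), a ubiquitin ligase gene of the VIM family, fell in ddm1nrpe1 (-1.25 ± 0.19, adjusted p = 7.6e-05).

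Some rows of the blocks may count the same reads as another row. Of 1064 loci with at least 10 reads in every library, 48 had another row of their chromosome within 0.1 log2 units in every library, and for 43 of them that row was a transposon. AT1G36730 and AT1G36732 held identical counts, as did AT2G13660 and AT2G13665. No source used here states the strand setting of the counting, so overlapping and antisense genes cannot be separated, and transposon copies may share reads.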

How the data were processed

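The authors deposited a table of raw read counts for each locus and library, which was the input here. The authors' CPM columns in that table, the same counts over their column sum, were not tested. The submitters' processing notes name, among others, Trimmomatic, TopHat, HTSeq and edgeR and the build TAIR10, without roles or versions. Strand setting, the treatment of reads with several matches and the annotation are not stated in any source used here. Names, classes and lengths come from the RefSeq gene table of TAIR10.1, which does not list 11 of the loci, and no coordinates are given because the builds differ.

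The fit used edgeR 4.0.16 under R 4.3.3: filterByExpr (24839 loci), TMM factors and 1 model of the 4 group means over 12 libraries (8 residual degrees of freedom), with robust quasi-likelihood F tests with p-values adjusted after Benjamini-Hochberg over these loci, at 0.05. The standard error is the size of the log2 fold change over the square root of F. Levels are TMM-normalised CPM. The steps were tested on simulated data. Library totals set the precision of each value, and folds against 0 counts use a floor of 3 counts per group. Ratios with 1 to 3 counts in a group carry exact 95% binomial counting intervals.

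The members and lists were chosen with earlier results of these data known, so no list was tested. Named loci follow a rule: per comparison against ddm1, among called loci with a mean of at least 1 CPM in the group where they are higher and with library values that do not overlap, the 6 highest and 6 lowest pseudogene-class or other non-coding loci and likewise the protein-coding ones. It adds 3 each way between double mutants, the 10 most abundant non-coding loci, CACTA1, MU1 and up to 4 per list by smallest adjusted p. Loci from a list or a stretch that the rule does not name are given for that list or stretch. Loci whose call rested on 1 library were left out unless given with that value.

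Alternatives were RLE factors, TMM from protein-coding loci outside the blocks, no filter, a filter at CPM 1 in 3 libraries, a fit of only the 6 libraries compared, a replicate block, no organelle loci, each library left out, DESeq2 1.42.0 and, chosen after seeing the data, no ribosomal RNA locus.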

Additional observations from a re-analysis of the deposited data

How the results depend on the processing

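The counts of loci around the centromeres called higher and lower, for all of them and for the pseudogene class in the 6 comparisons (24 counts), stayed within 1.5 times their value in each of 360 recomputations. In ddm1cmt2 against ddm1, TMM factors from protein-coding loci outside the blocks gave 133 higher and 387 lower and the 6 libraries alone 139 higher and 296 lower, beside 155 and 345. Leaving out each library in turn gave 379 to 403 higher and 293 to 359 lower in ddm1nrpd1 against ddm1, 491 to 512 and 242 to 299 in ddm1nrpe1, and 118 to 158 and 256 to 336 in ddm1cmt2. Between double mutants it gave 131 to 183 higher and 402 to 490 lower in ddm1nrpd1 against ddm1nrpe1.

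Deviations of same-numbered replicates from their group means correlated at -0.32 to 0.25. The highest were 0.21 and 0.25 for replicates 1 and 3 of ddm1nrpd1 and ddm1nrpe1, and 0.22 for replicate 3 of ddm1nrpe1 and ddm1. With 3 replicates per group this cannot decide whether the numbers pair the samples, and the main fit does not pair them. With the replicate number as a block, 420 rose and 363 fell in ddm1nrpd1, 528 and 303 in ddm1nrpe1, and 147 and 328 in ddm1cmt2. For the named loci, 115 of the recomputations without a library and 16 under other settings lost the call, and none turned its direction. The 3 ddm1 libraries are the shallowest, which limits what can be counted there at loci near 0.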
